A study of Homo sapiens with 27 samples.

Results

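Serine synthesis and the folate-bound one-carbon pathway were followed through 9 enzyme genes: PHGDH, PSAT1, PSPH, SHMT1, SHMT2, MTHFD1, MTHFD2, MTHFD1L and GLDC. A gene was taken as measured where the platform annotation gave a probe set to that gene alone, and the probe set with the brightest mean over all arrays stood for it. All 9 genes had such a row, over 33 probe sets in all. After a filter on dim probe sets, 8 of the 9 genes were among the 12390 genes tested, with 31 of the 33 probe sets. GLDC did not pass and is given as levels only.

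The arrays hold 9 groups of 3, numbered in the labels as biological replicates. The groups are EBC-1 treated with 1 uM SGX-523 for 24 h, EBC-1 treated for 48 h and EBC-1 given DMSO, and the same 3 groups of MKN-45 and of HCC827. SGX-523 is a small-molecule inhibitor of the receptor tyrosine kinase MET, and DMSO is its solvent. EBC-1 is labelled as a non-small cell lung cancer line and MKN-45 as a gastric cancer line, and the study describes both as dependent on MET. HCC827, also labelled as non-small cell lung cancer, was the study's control line, in which MET is active but not needed. Each cell line is a single model, and the DMSO arrays carry no time label and serve both treatment times of their line.

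PHGDH, PSAT1 and PSPH turn a glycolytic intermediate into serine in 3 steps. SHMT1 in the cytosol and SHMT2 in mitochondria split serine into glycine and a one-carbon unit carried by tetrahydrofolate. MTHFD1 in the cytosol, and MTHFD2 with MTHFD1L in mitochondria, interconvert that unit and formate, which moves between the compartments. The units are spent on purine rings, on thymidylate and on methionine. GLDC is the decarboxylase of the glycine cleavage system, another mitochondrial source of one-carbon units. Proliferating tumour cells are known to use this pathway heavily, and the mitochondrial enzymes SHMT2 and MTHFD2 are often raised in tumours.

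Values are log2 expression values as deposited, and a fold change is a difference of group means on that scale. The array medians lay between 5.02 and 5.14 in EBC-1 and MKN-45 and between 5.71 and 5.73 in HCC827. Distinct values in common per pair of arrays had a median of 163 where HCC827 met another line, against 1027.5 within HCC827 and 1056 among the other 2 lines, so HCC827 levels are given without a test against the other lines, and tests between lines compare responses taken within each line. HCC827 SGX-523 24 h replicate 3 stood apart. Its residuals from the group mean had an SD of 0.367, against at most 0.115 outside its group, and it is named wherever it bears on a value. The MET transcript fell in EBC-1 (-0.48 and -0.63 at 24 h and 48 h) and in MKN-45 (-0.49 and -0.52), and was not called in HCC827. Epithelial markers reached the array median on all DMSO arrays for 5 of 6 genes in EBC-1, where CDH1 was at 3.20, and for 6 of 6 in MKN-45 and in HCC827. Gastric or intestinal markers did so for 4 of 8 genes in EBC-1, 6 of 8 in MKN-45 and 0 of 8 in HCC827. Lung markers did so for 3 of 6 genes in each line. In HCC827 DMSO arrays the lung markers NKX2-1 and NAPSA were at 7.00 and 9.36. Of 5 leukocyte markers, 1 reached it in EBC-1 (CD14, at 7.11), 0 in MKN-45 and 1 in HCC827 (ITGB2, at 6.33), while PTPRC was at most 2.99 in any group mean. The fibroblast marker COL3A1 was at most 3.19 in any group mean. LUM, of the same list, was at 10.04 in EBC-1 DMSO arrays. It was at 11.81 and 12.06 in EBC-1 after 24 h and 48 h of SGX-523. The summed level of 6 fibroblast markers, as a mean above the array median, was 0.07 to 0.28 on treated EBC-1 arrays and -0.29 to -0.12 on EBC-1 DMSO arrays, where LUM was the one marker at or above the array median on all 3.

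Both MET-dependent lines had less RNA of every tested enzyme after SGX-523. In EBC-1 at 24 h, 8 of 8 enzymes were lower and none was higher (limma, Benjamini-Hochberg adjusted p under 0.05 over all genes). Over all 12390 genes 28% were called lower in that comparison. At 48 h 8 of 8 were again lower, against 28.9% of all genes. In MKN-45, 8 of 8 enzymes were lower at 24 h, where 26.9% of all genes were lower, and 8 of 8 at 48 h, where 26.2% were. Of the 31 probe sets, 27 and 27 were lower in EBC-1 and 30 and 30 in MKN-45, and 0 were higher. In these 4 comparisons the median fold change of the 8 enzymes was -0.83 and -0.92 in EBC-1 and -1.31 and -1.29 in MKN-45. The median of all genes tested lay between 0.036 and 0.067. Every treated array was below every DMSO array of its line for each of the 8 enzymes, a pattern shown by 33%, 33.3%, 31.1% and 30.6% of all genes in EBC-1 at 24 h and 48 h and in MKN-45 at 24 h and 48 h. In bulk RNA a lower value can come from fewer cells of a kind or from less RNA per cell, and these cannot be told apart.

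**Figure D1:**
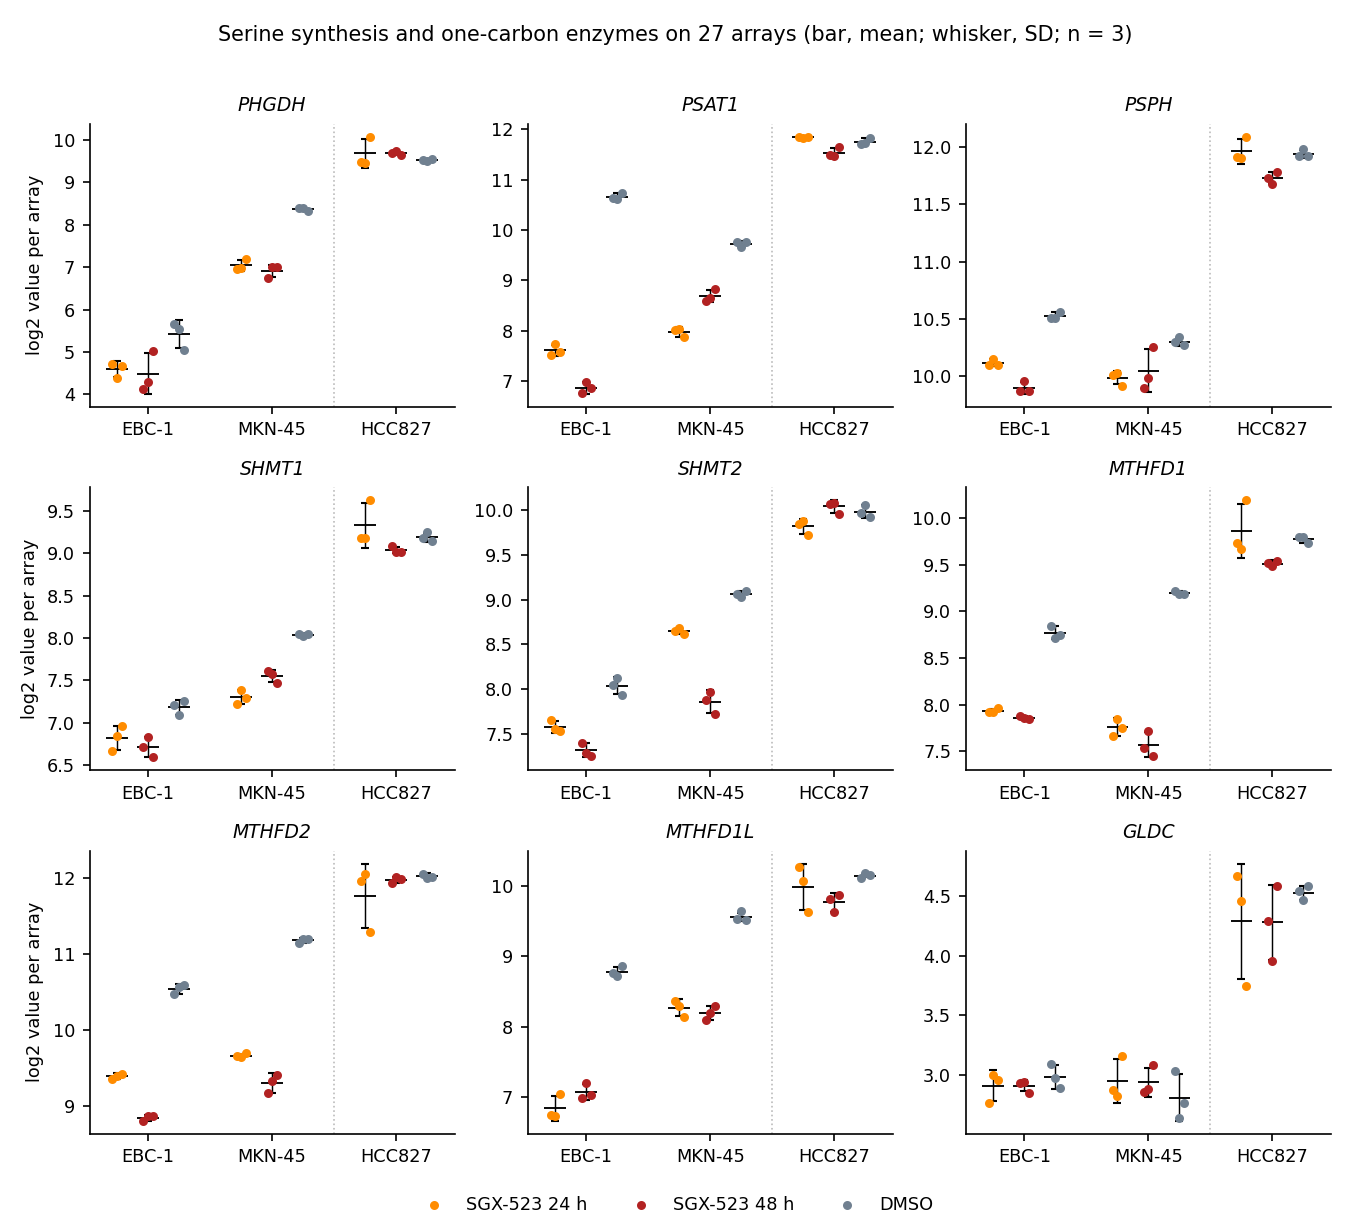
Log2 value of each enzyme gene on each of 27 arrays, grouped by cell line, with SGX-523 24 h, SGX-523 48 h and DMSO from left to right within a line. Points are arrays, bars means and whiskers SD (n = 3 per group), each panel has its own scale, and the dotted line sets off HCC827, whose values are not on the scale of the other 2 lines. Treated EBC-1 and MKN-45 arrays sit below DMSO for 8 of the 9 genes, and GLDC stays below 5 on all arrays.

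Some array measures moved with the treatment in the same lines. The log2 ratio of the 3' to the 5' ACTB control probe set was 3.76 and 3.89 in EBC-1 after 24 h and 48 h of SGX-523, against 3.37 in DMSO. It was 3.68 and 4.15 in treated MKN-45, against 3.53 in DMSO, and 2.64 and 2.33 in treated HCC827, against 2.08 in DMSO, with HCC827 SGX-523 24 h replicate 3 at 3.40. The 18 hybridization control probe sets averaged 0.30 and 0.35 higher in treated EBC-1 than in DMSO, 0.29 and 0.31 higher in treated MKN-45, and 0.10 and 0.02 higher in treated HCC827. The 24 poly-A control probe sets differed from DMSO by 0.48 and 0.51 in treated EBC-1, by 0.41 and 0.16 in treated MKN-45 and by -0.04 and -0.15 in treated HCC827. Lineage markers moved as well. CDX2, an intestinal transcription factor, was at 9.34 and 9.93 in EBC-1 after 24 h and 48 h, against 6.88 in DMSO, and at 8.13 and 8.66 in treated MKN-45, against 6.19 in DMSO. KRT18, an epithelial keratin, was at 12.28 and 12.21 in treated EBC-1, against 13.62 in DMSO, and at 10.90 and 11.16 in treated MKN-45, against 13.21 in DMSO. In MKN-45 the gastric peptide gene TFF1 was at 7.55 and 6.65, against 10.41 in DMSO. SOX2, placed here in a list of squamous markers, was at 10.78 and 11.06, against 8.00 in DMSO. Markers of the same lists also moved in opposite directions. CLDN4, an epithelial marker, was at 11.49 and 11.36 in treated EBC-1, against 9.70 in DMSO. The intestinal marker VIL1 was at 5.60 and 6.27 in treated EBC-1, against 7.95 in DMSO. In treated MKN-45 LGALS4, of the gastric or intestinal list, was at 9.90 and 9.43, against 10.80 in DMSO. The squamous marker KRT5 was at 5.17 and 4.53 there, against 5.56. The number of markers at or above the array median on all 3 arrays was the same in treated and DMSO groups for the epithelial list (5 of 6 in EBC-1, 6 of 6 in MKN-45) and the gastric or intestinal list (4 of 8 and 6 of 8). For the squamous list in MKN-45 it was 2 of 3 in DMSO and 1 of 3 at each treatment time. The squamous list as a mean above the array median was 1.06 to 1.31 on treated MKN-45 arrays, against 0.35 to 0.61 in DMSO. The gastric or intestinal list as a mean above the array median was 1.15 to 1.42 on treated EBC-1 arrays, against 0.92 to 0.96 in DMSO. In MKN-45 it was lower on treated arrays, 2.27 to 2.48, against 2.61 to 2.64 in DMSO. The epithelial list was 5.40 to 5.60 on treated EBC-1 arrays, against 5.48 to 5.64 in DMSO. On treated MKN-45 arrays it was 6.05 to 6.21, against 6.66 to 6.71 in DMSO. The part of these measures in the enzyme values was not tested.

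PSAT1, the aminotransferase of the middle step of serine synthesis, had the largest fall of the enzymes at both times in EBC-1 and at 24 h in MKN-45. In EBC-1 it was at 7.52, 7.73 and 7.58 after 24 h and at 6.76, 6.99 and 6.86 after 48 h of SGX-523, against 10.64, 10.61 and 10.74 in DMSO. The groups were far apart, with fold changes of -3.05 ± 0.0726 (SE; adjusted p = 4.93e-21) at 24 h and -3.79 ± 0.0726 (adjusted p = 4.61e-23) at 48 h. At 48 h PSAT1 was 13.9-fold lower, and had rank 72 from the largest fall among the 12390 genes. In MKN-45 it was at 8.02, 8.04 and 7.87 after 24 h and at 8.60, 8.66 and 8.82 after 48 h, against 9.76, 9.67 and 9.76 in DMSO. The 3 MKN-45 groups did not overlap, and the fall was smaller at 48 h (-1.04 ± 0.0726, adjusted p = 4.72e-12) than at 24 h (-1.76 ± 0.0726, adjusted p = 2.07e-16). All 8 PSAT1 probe sets were lower in these 4 comparisons.

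PHGDH, the dehydrogenase that commits carbon to serine, had the largest difference in level between the 2 MET-dependent lines. In MKN-45 it was at 6.95, 6.99 and 7.18 after 24 h and at 6.74, 7.00 and 7.00 after 48 h, against 8.40, 8.40 and 8.32 in DMSO. The fold changes were -1.33 ± 0.180 (SE; adjusted p = 5.46e-07) and -1.46 ± 0.180 (adjusted p = 1.16e-07), and treated and DMSO arrays did not overlap. In EBC-1 it was at 4.72, 4.39 and 4.68 after 24 h and at 4.13, 4.30 and 5.03 after 48 h, against 5.66, 5.54 and 5.05 in DMSO. These groups nearly touch, with fold changes of -0.82 (adjusted p = 0.000323) and -0.93 (adjusted p = 7.42e-05). On each of the 6 treated EBC-1 arrays PHGDH lay below the array median, so the size of its fall rests on dim signals. PHGDH rests on 1 probe set, and a brighter one shared with MZT2B was not used.

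PSPH, the phosphatase of the last step, fell by less than 1 on the log2 scale, with -0.41 and -0.63 in EBC-1 and -0.31 and -0.25 in MKN-45 (adjusted p = 0.00142 for the smallest of these falls). MKN-45 SGX-523 48 h replicate 3, at 10.26, came next to the lowest MKN-45 DMSO array, at 10.27. The probe sets of PSPH differed in size. The values above are of the brightest probe set. In MKN-45 the second brightest had -1.52 and -1.70 and the dimmest -1.73 and -1.96 at 24 h and 48 h, all called. In EBC-1 neither of these was called, with values between -0.33 and -0.06. Without inhibitor the brightest probe set was 0.23 higher in EBC-1 than in MKN-45, while the second brightest was lower in EBC-1 (10.55 in EBC-1 and 11.57 in MKN-45, difference -1.02) and so was the dimmest (8.03 in EBC-1 and 9.44 in MKN-45, difference -1.41). The size of the PSPH response is therefore uncertain here. PSPH has near-identical copies in the genome, and whether the probes also bind their transcripts was not tested.

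**Figure D2:**
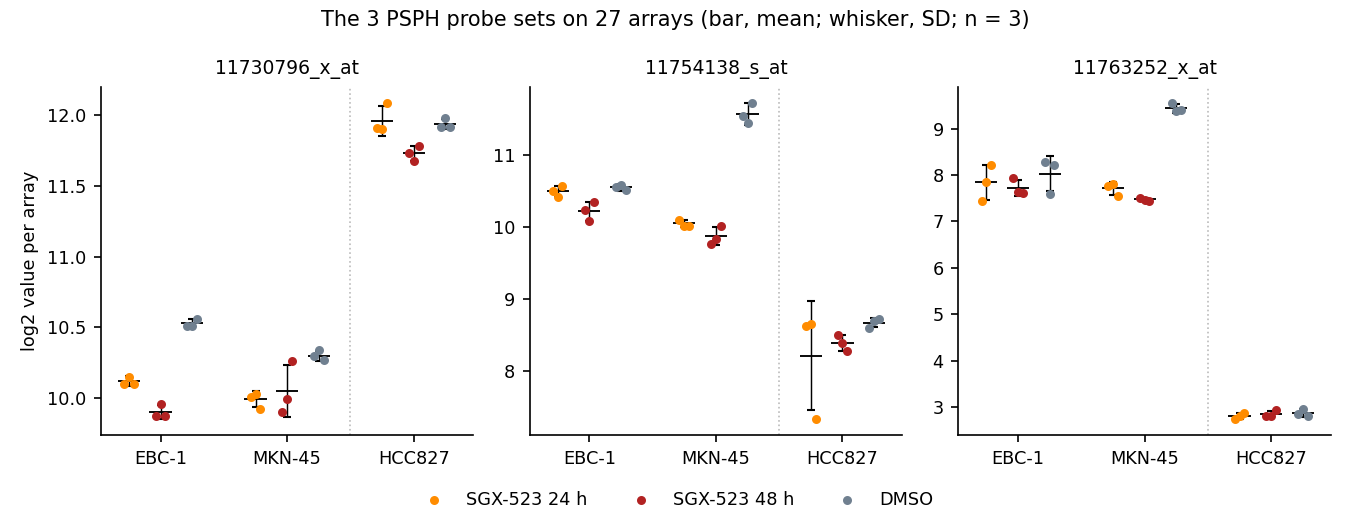
Log2 value of the 3 PSPH probe sets on 27 arrays, with SGX-523 24 h, SGX-523 48 h and DMSO from left to right within each line, the brightest probe set in the left panel and the dimmest in the right, each on its own scale. Points are arrays, bars means and whiskers SD (n = 3), and the dotted line sets off HCC827. The probe sets in the middle and right panels separate all treated from DMSO arrays in MKN-45, and the one in the right panel has HCC827 group means of 2.81 to 2.87.

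Both serine hydroxymethyltransferases fell in both lines. SHMT2, the mitochondrial enzyme, was at 8.65, 8.68 and 8.62 after 24 h and at 7.88, 7.97 and 7.72 after 48 h in MKN-45, against 9.06, 9.03 and 9.10 in DMSO. The fall was -0.41 ± 0.0699 (SE; adjusted p = 1.62e-05) at 24 h and -1.20 ± 0.0699 (adjusted p = 1.32e-13) at 48 h, with no overlap among the 3 groups. In EBC-1 SHMT2 fell (-0.45 and -0.72). SHMT1, the cytosolic enzyme, fell (-0.36 and -0.48 in EBC-1 and -0.74 and -0.50 in MKN-45), with adjusted p between 3.58e-07 and 0.00245. All 4 SHMT2 probe sets were lower in these comparisons. Of the 5 SHMT1 probe sets, 3 were lower in EBC-1 and 4 in MKN-45, and 1 had values between 0.11 and 0.41 that were not called.

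Among the MTHFD enzymes the mitochondrial pair fell by more than 1 on the log2 scale at each time in both lines. MTHFD2, the mitochondrial dehydrogenase and cyclohydrolase, was at 9.35, 9.39 and 9.42 after 24 h and at 8.80, 8.86 and 8.87 after 48 h in EBC-1, against 10.47, 10.56 and 10.59 in DMSO. In MKN-45 it was at 9.65, 9.64 and 9.69 and then at 9.17, 9.33 and 9.41, against 11.15, 11.20 and 11.20 in DMSO. The arrays of the 3 groups did not overlap in either line. The fold changes were -1.15 ± 0.112 and -1.70 ± 0.112 in EBC-1 and -1.52 ± 0.112 and -1.88 ± 0.112 in MKN-45 (SE; adjusted p between 2.05e-13 and 2.04e-09). All 5 MTHFD2 probe sets were lower in each of these comparisons.

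MTHFD1L, the mitochondrial enzyme that releases formate, was at 6.74, 6.73 and 7.04 after 24 h and at 6.99, 7.20 and 7.03 after 48 h in EBC-1, against 8.77, 8.72 and 8.86 in DMSO. In MKN-45 it was at 8.37, 8.30 and 8.14 and then at 8.10, 8.19 and 8.30, against 9.53, 9.64 and 9.52 in DMSO. The 24 h and 48 h arrays overlapped in each line and both lay below DMSO. Its fold changes were -1.94 ± 0.115 and -1.71 ± 0.115 in EBC-1 and -1.30 ± 0.115 and -1.37 ± 0.115 in MKN-45 (SE; adjusted p at most 4.78e-10). MTHFD1, the cytosolic enzyme with 3 activities, was at 7.66 to 7.85 after 24 h and 7.45 to 7.72 after 48 h in MKN-45, against 9.19 to 9.22 in DMSO, with fold changes of -1.45 and -1.63. In EBC-1 it was at 7.92 to 7.96 and 7.85 to 7.88, against 8.71 to 8.84 in DMSO, with fold changes of -0.84 and -0.90.

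**Figure D3:**
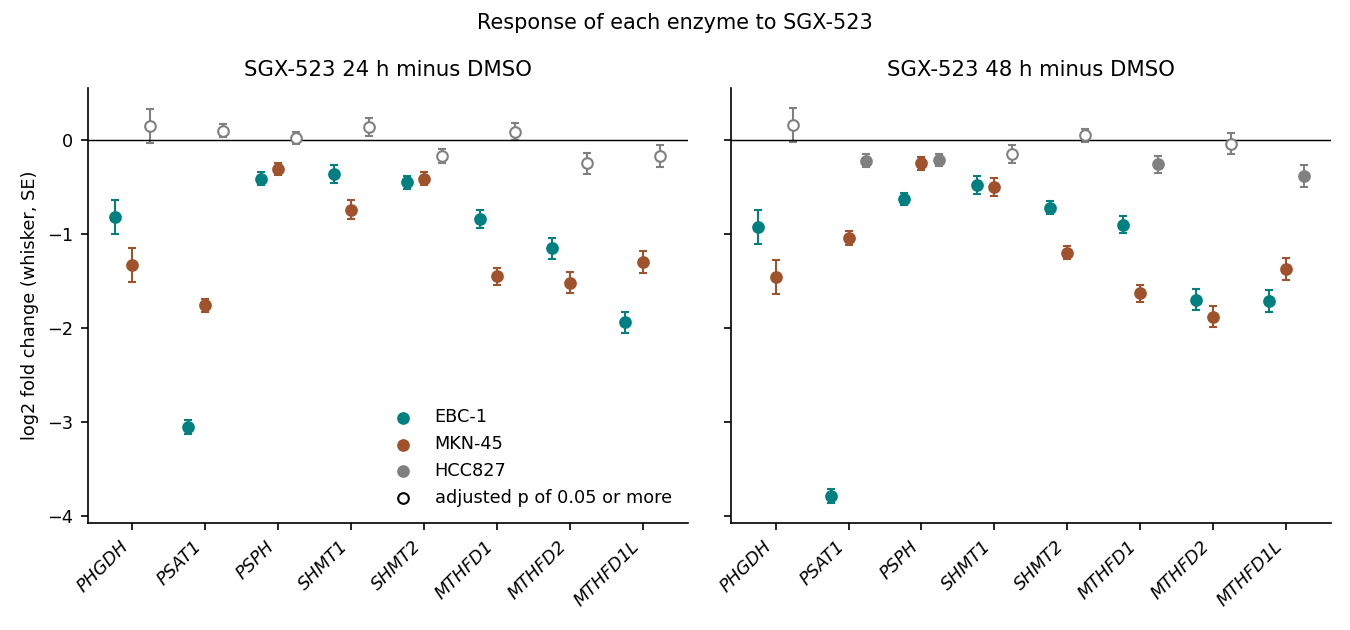
Log2 fold change of the 8 tested enzymes, SGX-523 minus DMSO, at 24 h (left) and 48 h (right) in EBC-1, MKN-45 and HCC827, with SE as whiskers and open circles where the adjusted p was 0.05 or more. All EBC-1 and MKN-45 points are filled and below 0, PSAT1 in EBC-1 reaches -3.79, and HCC827 lies between -0.38 and 0.16.

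Promoters of the enzymes that fell together are shown for PSAT1, MTHFD2 and MTHFD1L, the enzymes with the largest falls in EBC-1, as RefSeq gives them in GRCh38.p14 from 250 bases before to 50 bases after the start site. Capitals mark matches, on either strand, to CCAAT, to the E-box CACGTG and to TGATGNAA, the C/EBP-ATF response element. None of the marked matches overlap. The windows are chr9:78296875-78297174 (plus strand) for PSAT1, chr2:74198365-74198664 (plus strand) for MTHFD2 and chr6:150866197-150866496 (plus strand) for MTHFD1L, which has 4 entries, 3 of them overlapping.
PSAT1: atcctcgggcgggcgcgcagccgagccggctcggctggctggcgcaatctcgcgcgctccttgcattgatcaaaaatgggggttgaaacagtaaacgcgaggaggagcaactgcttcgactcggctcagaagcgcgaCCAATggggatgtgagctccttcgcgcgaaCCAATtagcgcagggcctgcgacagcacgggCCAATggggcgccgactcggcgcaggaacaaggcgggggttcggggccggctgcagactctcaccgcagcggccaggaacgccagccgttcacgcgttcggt
MTHFD2: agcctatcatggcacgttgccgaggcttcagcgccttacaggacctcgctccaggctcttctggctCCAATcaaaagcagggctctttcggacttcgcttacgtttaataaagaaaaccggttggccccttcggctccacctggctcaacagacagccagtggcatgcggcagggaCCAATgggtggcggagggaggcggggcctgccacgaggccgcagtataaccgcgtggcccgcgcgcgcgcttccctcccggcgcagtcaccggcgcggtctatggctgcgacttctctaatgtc
MTHFD1L: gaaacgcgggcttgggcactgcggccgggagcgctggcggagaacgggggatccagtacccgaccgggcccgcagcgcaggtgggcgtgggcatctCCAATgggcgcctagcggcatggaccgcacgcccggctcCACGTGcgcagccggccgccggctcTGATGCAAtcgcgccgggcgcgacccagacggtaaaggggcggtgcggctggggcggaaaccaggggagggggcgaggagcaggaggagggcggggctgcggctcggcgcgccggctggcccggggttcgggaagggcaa
The PSAT1 window holds CCAAT at positions 138, 168 and 199 and the MTHFD2 window at positions 67 and 177. The MTHFD1L window holds 1 match to each of the 3 motifs, CCAAT at position 97, CACGTG at 136 and TGATGCAA at 161. Of the 9 enzymes, 7 matched an entry, and PSPH and SHMT2 did not. CCAAT was in at least 1 window of each of the 7 (PHGDH, PSAT1, SHMT1, MTHFD1, MTHFD2, MTHFD1L and GLDC), and in 34.6% of 35116 promoter windows of all genes. CACGTG was in windows of MTHFD1 and MTHFD1L and in 7.26% of all, and TGATGNAA in MTHFD1L and in 3.62% of all. The enzymes are counted by gene, with a match in any of a gene's windows, and the shares of all are by window, so they are not on the same unit. The MTHFD1L window at chr6:151006758-151007057 held none of the 3 motifs. A match describes letters in a window and is not a measured binding site.

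In HCC827, 4 of 8 enzymes were called at 48 h and 0 at 24 h. At 24 h 0 of 8 enzymes were called in limma's test, where 0.0323% of all genes were, and the fold changes lay between -0.25 (MTHFD2) and 0.15 (PHGDH). At an unadjusted p under 0.05, which 21.1% of all genes met, 2 of the 8 enzymes passed, SHMT2 (-0.17, unadjusted p = 0.0251) and MTHFD2 (unadjusted p = 0.0321). The extremes rest on replicate 3. For PHGDH the SGX-523 24 h arrays were at 9.49, 9.46 and 10.08, against 9.53, 9.51 and 9.54 in DMSO, and for MTHFD2 they were at 11.96, 12.06 and 11.29, against 12.06, 12.00 and 12.02 in DMSO. Without replicate 3 PHGDH was at -0.05, and without replicate 1 or 2, which leaves replicate 3 as 1 of 2 treated arrays, MTHFD2 was called at -0.35 or -0.40.

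At 48 h 4 of 8 enzymes were lower in HCC827 and none was higher, where 22.2% of all genes were called and 10.7% were lower. MTHFD1L was at 9.82, 9.63 and 9.87 after 48 h, against 10.12, 10.18 and 10.16 in DMSO, a fold change of -0.38 ± 0.115 (SE; adjusted p = 0.0184). PSAT1 was at 11.48, 11.46 and 11.64, against 11.70, 11.72 and 11.82 in DMSO, a fold change of -0.22 ± 0.0726 (adjusted p = 0.031). Treated and DMSO arrays did not overlap for either gene, as for 5 of the 8 enzymes in this direction and 26.2% of all genes. MTHFD1 (-0.26) and PSPH (-0.21) were the others called, and PHGDH (0.16), SHMT1 (-0.15), SHMT2 (0.05) and MTHFD2 (-0.04) were not. With HCC827 fitted alone 0 of 8 were called, and leaving out DMSO replicate 2 or SGX-523 48 h replicate 2 also left 0.

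The difference between lines was tested directly as an interaction, the response of one line minus that of the other. Against HCC827 at 24 h, 8 of 8 enzymes responded lower in EBC-1 (23.4% of all genes were lower) and 8 of 8 in MKN-45 (22.3%). The smallest of these were not stable. SHMT2 in MKN-45 (-0.24) lost its call in 10 alternatives (adjusted p between 0.0543 and 0.106), among them no filter and a separate fit per line, and SHMT2 in EBC-1 (-0.29) in 3. PSPH in EBC-1 (-0.44) was at -0.05 (adjusted p = 0.736) with its probe sets averaged, and its probe sets ranged from -0.44 to 0.41. At 48 h 7 of 8 did in EBC-1 (24.2% of all genes), SHMT1 being the exception at -0.32 (adjusted p = 0.0556, called in 5 alternatives), and 7 of 8 in MKN-45 (21.5%), PSPH being the exception at -0.05 (adjusted p = 0.708). That value is of the brightest PSPH probe set. The other 2 of its 3 probe sets were lower, down to -1.94 for the dimmest. In HCC827 the dimmest had group means of 2.81 to 2.87, below the array medians, so no HCC827 response can be read from it. Its difference therefore rests on the MKN-45 fall alone. The mean of all 3 probe sets was called at -1.13. Each average of PSPH probe sets against HCC827 includes the dimmest. With PSPH probe sets averaged the EBC-1 value at 48 h was -0.25 (adjusted p = 0.0842). SHMT1 in MKN-45 at 48 h (-0.34, adjusted p = 0.0403) lost its call in 14 alternatives (adjusted p between 0.0513 and 0.0935), among them the replicate block (adjusted p = 0.0635) and no filter. PSAT1 had the most negative interaction with HCC827 in EBC-1, at -3.15 ± 0.103 (SE; adjusted p = 8.69e-18) at 24 h and -3.57 ± 0.103 (adjusted p = 5.05e-19) at 48 h. All these contrasts of a line share its DMSO arrays, so the 24 h and 48 h values are not independent. The 24 h contrasts also include HCC827 SGX-523 24 h replicate 3. Without that array the HCC827 response at 24 h went from 0.15 to -0.05 for PHGDH and from 0.14 to -0.01 for SHMT1. It went from 0.09 to -0.08 for MTHFD1 and from 0.02 to -0.04 for PSPH. For MTHFD1L it moved the other way, from -0.17 to 0.01.

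The EBC-1 and MKN-45 responses were also set against each other. At 24 h 4 of 8 enzymes differed, a share near that of all genes, of which 42.1% were called, 23.8% lower and 18.3% higher. PSAT1 (-1.30 ± 0.103, SE) and MTHFD1L (-0.65 ± 0.163) fell further in EBC-1, while MTHFD1 (0.61 ± 0.130) and SHMT1 (0.38 ± 0.138) fell further in MKN-45. The SHMT1 difference (adjusted p = 0.0285) lost its call with any 1 of 5 arrays left out (0.31 to 0.37, adjusted p between 0.0512 and 0.0877). At 48 h 4 of 8 differed, again near the share of all genes, of which 49% were called, 29.4% lower and 19.6% higher. PSAT1 (-2.76 ± 0.103) and PSPH (-0.37 ± 0.0916) fell further in EBC-1, and MTHFD1 (0.73 ± 0.130) and SHMT2 (0.48 ± 0.0989) in MKN-45. The PSPH difference turned to 0.88 when its 3 probe sets were averaged, and at 24 h, where it was -0.10 and not called, to 0.97. MTHFD2 was not called, with a difference of 0.37 (adjusted p = 0.0661) at 24 h and 0.19 (adjusted p = 0.35) at 48 h. These non-calls depend on the fit. Without HCC827 SGX-523 24 h replicate 3, limma called both MTHFD2 differences (adjusted p = 1.26e-05 and 0.0133). With EBC-1 and MKN-45 fitted apart from HCC827 both were also called (adjusted p = 9.37e-05 and 0.0261).

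Between 24 h and 48 h PSAT1 moved in opposite directions in the 2 lines. In EBC-1 it was lower at 48 h than at 24 h by a fold change of -0.74 ± 0.0726 (SE; adjusted p = 7.77e-08), and in MKN-45 it was higher by 0.72 ± 0.0726 (adjusted p = 6.69e-08). The interaction of lines and times was not fitted as a contrast of its own. Of the 8 PSAT1 probe sets, 4 were lower in EBC-1 and 0 higher, and 4 were higher in MKN-45 and 0 lower. In EBC-1, 4 of 8 enzymes were lower at 48 h (PSAT1, MTHFD2 at -0.54, SHMT2 at -0.27 and PSPH at -0.22) and none was higher, where 11.1% of all genes were called and 6.08% were lower. The PSPH call was lost in 9 alternatives (adjusted p between 0.0529 and 0.144), among them the replicate block (adjusted p = 0.0529) and quantile normalization. In MKN-45, SHMT2 (-0.79 ± 0.0699, adjusted p = 6.86e-09) and MTHFD2 (-0.36) were lower and PSAT1 was higher, where 24.3% of all genes were called, 9.35% lower and 14.9% higher. The MTHFD2 call was lost in 3 alternatives (adjusted p between 0.0623 and 0.15), among them the mean of its probe sets (-0.26). Of its 5 probe sets, 2 were lower. All 4 SHMT2 probe sets were lower at 48 h in both lines. In HCC827, 4 of 8 were lower at 48 h than at 24 h (PSAT1, PSPH, SHMT1 and MTHFD1, from -0.35 to -0.23) and SHMT2 was higher (0.22), where 26.5% of all genes were called, 10.7% lower and 15.8% higher. Without 24 h replicate 3, SHMT1 was at -0.14 (adjusted p = 0.195) and SHMT2 at 0.17 (adjusted p = 0.0549), both no longer called. MTHFD1, at -0.35 with that array, was at -0.18 without it (adjusted p = 0.0255), and MTHFD1L, at -0.21 and not called with it, was at -0.40 (adjusted p = 0.000869).

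Without inhibitor the 2 MET-dependent lines differed in all 8 enzymes, where 67.6% of all genes were called, 33.6% higher and 34% lower in EBC-1. PSAT1 was higher in EBC-1 DMSO arrays than in MKN-45 DMSO arrays (10.66 ± 0.0677 and 9.73 ± 0.0495, SD, n = 3 each; difference 0.93, adjusted p = 2.35e-11), and so was PSPH (0.23), which turned to -0.73 when its probe sets were averaged. The other 6 were lower in EBC-1. PHGDH differed by -2.96 ± 0.180 (SE; adjusted p = 1.81e-13), or 7.77-fold, with means of 5.42 ± 0.326 in EBC-1 and 8.38 ± 0.0496 in MKN-45 (SD, n = 3 each). SHMT2 (-1.02), SHMT1 (-0.86), MTHFD1L (-0.78), MTHFD2 (-0.64) and MTHFD1 (-0.43) followed. After 48 h of SGX-523 PSAT1 was at 6.87 in EBC-1 and 8.69 in MKN-45, the reverse of the order in DMSO.

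Ranked by level, each neighbouring pair of the 6 EBC-1 and MKN-45 groups was apart for PSAT1, from EBC-1 DMSO as the highest to EBC-1 SGX-523 48 h as the lowest. For SHMT2 MKN-45 SGX-523 48 h (7.86) overlapped with EBC-1 DMSO (8.04). For PHGDH the 2 treated groups of each line overlapped with each other. GLDC was below the array median on all 27 arrays. Its group means were 2.91 at 24 h and 2.91 at 48 h against 2.98 in DMSO in EBC-1, 2.95 and 2.94 against 2.81 in MKN-45, and 4.29 and 4.28 against 4.53 in HCC827. No response of GLDC can be read at these signals.

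The enzymes varied together to unequal degrees over the 18 EBC-1 and MKN-45 arrays. With each line's mean removed, Pearson's r between members ranged from 0.60 (PSAT1 with SHMT2, and SHMT1 with SHMT2) to 0.96 (MTHFD1 with MTHFD2). These values describe 6 groups of 3 arrays that share lines and treatment. Over all tested genes, the genes most like PSAT1 were NUP107 (0.995), SRSF3 (0.992) and SLC38A1 (0.991), those most like MTHFD2 were ITGA2 (0.997), CDKN3 (0.995) and CENPK (0.994), and those most like MTHFD1L were CDC25A (0.994), FABP5 (0.994) and CCND1 (0.993). GPI, AKAP12 and RMI2 were most like MTHFD1 (0.990 to 0.995), and SEPTIN9, SLC25A5 and PRIM1 most like SHMT2 (0.973 to 0.980). PHGDH (TEFM, MCM2 and COLGALT1, at most 0.956), PSPH (LSM5, U2AF2 and FKBP3, at most 0.968) and SHMT1 (PPP2R2C, PSMC4 and ATP5MF, at most 0.965) had less close neighbours.

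The genes around the pathway were read in 6 lists, whose counts are to be set beside the shares of all genes. In EBC-1 at 24 h and 48 h, 28% and 28.9% of all genes were lower and 31.2% and 32.7% higher. In MKN-45, 26.9% and 26.2% were lower and 33.4% and 36.4% higher. In HCC827, 0.0323% were called at 24 h, and 10.7% were lower and 11.6% higher at 48 h. Of 12 tested genes of purine synthesis, which consumes formyl groups from the folate pool, 11 and 11 were lower in EBC-1 at 24 h and 48 h and 0 were higher, with medians of -1.05 and -1.19. In MKN-45, 9 and 11 were lower and 1 and 1 higher, with medians of -1.11 and -1.07. PAICS, a bifunctional enzyme of the pathway, fell (-1.87 and -2.27 in EBC-1 and -2.07 and -2.31 in MKN-45). PFAS fell in EBC-1 (-2.16 and -2.22) and in MKN-45 at 24 h (-1.44). PPAT, the first committed enzyme, is given for EBC-1 (-1.59 and -1.86), and GART, a formyl-accepting enzyme, for MKN-45 (-1.34 and -1.36). Genes were named by rank within a comparison, so a line left out need not be one without a change. In HCC827 0 were called at 24 h, and at 48 h 5 were lower, with PFAS at -0.46, and 1 was higher.

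Of 11 folate carriers and folate cycle genes, 8 and 7 were lower in EBC-1 and 1 and 1 higher, and 6 and 6 were lower in MKN-45 and 1 and 3 higher, beside the shares of all genes given above. TYMS, which takes a methylene group from folate to make thymidylate, was at 8.72 and 7.82 in EBC-1 after 24 h and 48 h, against 11.88 in DMSO, and at 8.47 and 7.97 in MKN-45, against 11.59 in DMSO. Its fold changes were -3.16 and -4.06 in EBC-1 and -3.12 and -3.62 in MKN-45. SLC19A1, the reduced folate carrier, fell (-1.46 and -1.25 in EBC-1 and -1.10 and -1.09 in MKN-45). SLC25A32, the mitochondrial folate carrier, fell in EBC-1 (-1.78 and -1.63) and in MKN-45 at 24 h (-1.25). In HCC827 SLC25A32 fell by 0.59 at 48 h and FOLR1, a folate receptor, was higher by 0.67.

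The glycine side did not move as one. Of 10 tested partners of glycine cleavage and users of serine or glycine, 4 and 4 were lower and 2 and 3 higher in EBC-1, and 5 and 5 lower and 3 and 2 higher in MKN-45. Both directions were common over all genes, with 28% and 28.9% lower and 31.2% and 32.7% higher in EBC-1. In MKN-45, 26.9% and 26.2% of all genes were lower and 33.4% and 36.4% higher. Within the glycine cleavage system, GCSH, its lipoyl carrier protein, fell (-1.16 and -1.17 in EBC-1 and -1.66 and -1.34 in MKN-45). AMT, its aminomethyltransferase, was at 7.40 to 7.59 and 7.53 to 7.75 in EBC-1 after 24 h and 48 h, against 6.46 to 6.62 in DMSO, and rose by 0.99 and 1.12. In MKN-45 AMT was at 7.92 to 8.11 and 7.86 to 8.08, against 6.25 to 6.48 in DMSO, and rose by 1.63 and 1.57. ALAS1, which uses glycine for haem, fell (-0.58 and -0.65 in EBC-1 and -1.14 and -1.06 in MKN-45). SPTLC2 rose by 0.80 and 0.83 in EBC-1. In HCC827 0 of the 10 were called at either time.

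Methionine cycle genes were also mixed, with 3 and 3 of 11 higher and 4 and 5 lower in EBC-1, and 2 and 2 higher and 2 and 4 lower in MKN-45. All genes were mixed too, with 31.2% and 32.7% higher and 28% and 28.9% lower in EBC-1. In MKN-45, 33.4% and 36.4% of all genes were higher and 26.9% and 26.2% lower. MAT2A, the catalytic subunit that makes S-adenosylmethionine, fell (-0.62 and -0.55 in EBC-1 and -0.53 and -0.38 in MKN-45). MAT2B, its regulatory subunit, rose by 0.77 and 0.64 in EBC-1 and by 0.61 and 0.48 in MKN-45, the last not called when probe sets were averaged. In HCC827 0 were called at 24 h, and 1 was higher and 1 lower at 48 h. Of 10 serine and glycine transport genes, 5 and 6 were lower and 2 and 2 higher in EBC-1, and 5 and 6 lower and 1 and 2 higher in MKN-45. SFXN1, the mitochondrial serine transporter, fell (-1.23 and -1.50 in EBC-1 and -1.23 and -1.29 in MKN-45). SLC38A1, a plasma membrane carrier of neutral amino acids, fell (-1.16 and -1.31 in EBC-1 and -0.51 and -0.38 in MKN-45), and SLC1A5, another, fell (-0.37 and -0.55 in EBC-1 and -1.42 and -1.58 in MKN-45). Other genes of the list rose, among them SFXN3 in EBC-1 (0.66 and 0.90) and SLC25A38 in MKN-45 (0.95 and 0.69). In HCC827 0 and 2 were lower and 0 higher.

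ATF4 is a transcription factor that drives PSAT1, PHGDH, MTHFD2 and other genes under amino acid stress. Of 14 genes of that response outside the enzymes, 6 and 6 were lower and 4 and 5 higher in EBC-1, and 6 and 7 lower and 4 and 4 higher in MKN-45, with medians between -0.21 and -0.06. ASNS, asparagine synthetase, fell (-1.24 and -1.81 in EBC-1 and -0.54 and -0.51 in MKN-45), and the cystine transporter SLC7A11 fell (-1.24 and -1.17 in EBC-1 and -1.33 and -1.83 in MKN-45). TRIB3 fell (-1.49 and -1.80) in EBC-1, where DDIT3, which encodes CHOP, was higher by 0.90 at 24 h, and SESN2 rose by 1.36 and 1.48 in MKN-45. SLC7A5 fell in MKN-45 at 24 h (-1.97) and in EBC-1 at 48 h (-1.32), and EIF2AK3 rose by 1.27 in MKN-45 at 48 h. In HCC827 0 were called at 24 h, and at 48 h 4 were higher, among them SLC7A11 (0.29), and 1 was lower, ATF5 (-0.66). The counts of these lists are descriptions. Over all genes 31.2% and 32.7% were called higher in EBC-1 at 24 h and 48 h, 33.4% and 36.4% in MKN-45, and 11.6% in HCC827 at 48 h. Called lower were 28% and 28.9% in EBC-1, 26.9% and 26.2% in MKN-45, and 10.7% in HCC827 at 48 h.

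**Figure D4:**
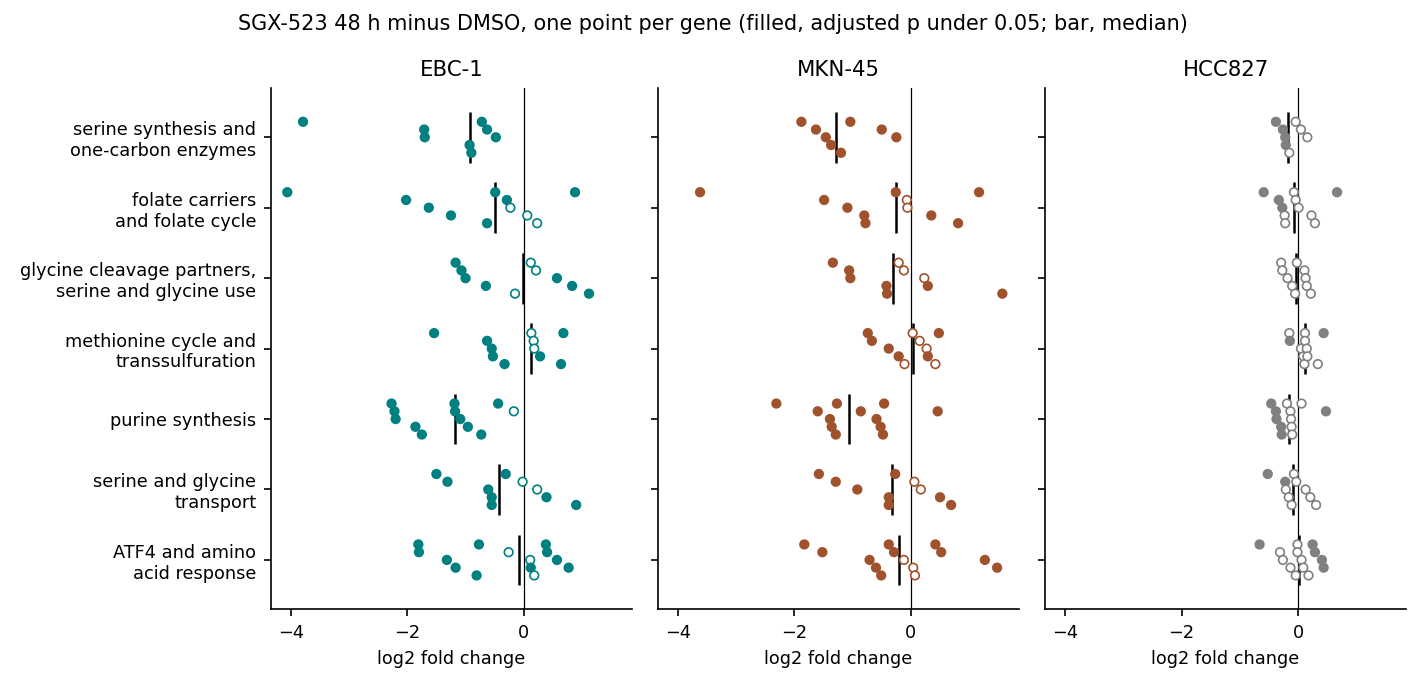
Log2 fold change, SGX-523 48 h minus DMSO, of each tested gene in the enzyme set and in 6 pathway lists, for EBC-1, MKN-45 and HCC827 from left to right. Filled points passed an adjusted p of 0.05 and black bars are medians. The enzymes and the purine synthesis genes have the lowest medians in EBC-1 (-0.92 and -1.19) and in MKN-45 (-1.29 and -1.07), and TYMS at -4.06 and -3.62 is the leftmost folate gene.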

How the data were processed

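RNA of 27 samples was measured on one-colour arrays. The deposited table holds 49395 probe sets per array as log2 expression values made by the authors, between 1.87 and 14.38. How they were normalized is not given in the sources used, and MAS5 is named, without a role, in the submitters' processing notes. A pseudocount of 16 had been planned for linear values and was dropped. Groups were taken from the sample titles, because some source names of control samples count upward. Probe sets with 1 gene symbol numbered 44988, with several 1832 and with none 2473, and 102 were controls. Probe sets at or above the array median on at least 3 of 27 arrays were kept (29694), and each gene was represented by its kept probe set of greatest mean, giving 12390 genes.

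Means of 9 groups were fitted together with limma 3.58.1 in R 4.3.3 (eBayes with an intensity trend, 18 residual degrees of freedom), with Benjamini-Hochberg adjustment over all genes of each comparison. The members and gene lists were chosen with earlier results of these data known. Genes outside the members were named by rank of p within each list, 4 per comparison, and the 3 genes of highest correlation with each member. Because each group has 3 arrays, precision is limited by their number. The p-values measure the spread between arrays labelled as replicates, and nothing given here shows whether they came from separate cultures. PSAT1, PSPH, MTHFD2 and SHMT1 have pseudogenes or near-identical copies that probes may also bind. The fit was tested on simulated data. Alternatives covered normalization, pseudocounts of 1 and 64 on the linear scale, filters, the trend, separate fits per line, blocking on the replicate number, averaging a gene's probe sets and leaving out each array.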

Additional observations from a re-analysis of the deposited data

Results flagged for a closer look

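The responses of the enzymes differed between lines by an interaction in limma (adjusted p under 0.05 over all genes) in 38 cases, which is what brought each of them here. These come from 8 enzymes in 6 contrasts. Of all genes, 23.4% and 24.2% responded lower in EBC-1 than in HCC827 at 24 h and 48 h, and 22.3% and 21.5% in MKN-45. Between EBC-1 and MKN-45 42.1% and 49% of all genes were called. Each value is the log2 response of the first line minus that of the second, and the SGX-523 values of a line share its DMSO arrays.

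At 24 h the EBC-1 response minus the HCC827 response was -3.15 for PSAT1, -1.78 for MTHFD1L, -0.97 for PHGDH, -0.92 for MTHFD1, -0.90 for MTHFD2, -0.50 for SHMT1, -0.44 for PSPH and -0.29 for SHMT2. With its probe sets averaged PSPH was at -0.05 and not called, and SHMT2 lost its call in 3 alternatives. The MKN-45 response minus the HCC827 response was -1.85 for PSAT1, -1.53 for MTHFD1, -1.48 for PHGDH, -1.27 for MTHFD2, -1.13 for MTHFD1L, -0.88 for SHMT1, -0.34 for PSPH and -0.24 for SHMT2, the last of which lost its call in 10 alternatives. These values include HCC827 SGX-523 24 h replicate 3.

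At 48 h the EBC-1 response minus the HCC827 response was -3.57 for PSAT1, -1.65 for MTHFD2, -1.33 for MTHFD1L, -1.09 for PHGDH, -0.77 for SHMT2, -0.64 for MTHFD1 and -0.42 for PSPH. With its probe sets averaged PSPH was at -0.25 and not called. The MKN-45 response minus the HCC827 response was -1.84 for MTHFD2, -1.62 for PHGDH, -1.37 for MTHFD1, -1.26 for SHMT2, -0.99 for MTHFD1L, -0.82 for PSAT1 and -0.34 for SHMT1, the last of which lost its call in 14 alternatives.

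Between the MET-dependent lines, the EBC-1 response minus the MKN-45 response at 24 h was -1.30 for PSAT1, -0.65 for MTHFD1L, 0.38 for SHMT1, whose call was lost in 5 alternatives, and 0.61 for MTHFD1. At 48 h it was -2.76 for PSAT1, -0.37 for PSPH, 0.48 for SHMT2 and 0.73 for MTHFD1. The PSPH value turned to 0.88 when its probe sets were averaged.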

How the results depend on the processing

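Each fall of the 8 enzymes in EBC-1 and MKN-45 against DMSO kept its direction and its call in 544 of 544 alternative values. Over the 8 enzymes in all comparisons, 2286 alternative fold changes kept direction and side of the threshold, 88 lost the call, 30 gained it and 28 reversed. Of the 88, 7 were of SHMT1 in HCC827 for 48 h against 24 h. Of the other named genes, 1871 kept both and 29 lost the call.

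The number of enzymes called in HCC827 at 48 h against DMSO was 4, but 0 with a separate fit per line and 2 with the mean of all probe sets. Leaving out 1 array gave 0 to 4, with 0 without DMSO replicate 2 or SGX-523 48 h replicate 2 and 1 without DMSO replicate 3 or SGX-523 48 h replicate 1. At 24 h leaving out 1 array gave 0 to 1, the 1 being MTHFD2 without SGX-523 24 h replicate 1 (-0.35) or replicate 2 (-0.40). Between 48 h and 24 h in HCC827 the count was 5, with 2 in a separate fit, 1 with the mean of all probe sets and 2 to 6 with 1 array left out (3 without SGX-523 48 h replicate 1 and 2 without replicate 2). In EBC-1 that count was 4 and ranged from 2 to 5, with 2 without SGX-523 24 h replicate 1 or SGX-523 48 h replicate 3. In MKN-45 it was 3 and ranged from 2 to 5, with 5 without HCC827 SGX-523 24 h replicate 3. Between EBC-1 and MKN-45 responses the count was 4 at each time and ranged from 3 to 6 at 24 h and from 4 to 7 at 48 h, with 7 without HCC827 SGX-523 24 h replicate 3.

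In HCC827 at 24 h without its replicate 3, PHGDH (-0.05), PSPH (-0.04), SHMT1 (-0.01) and MTHFD1 (-0.08) turned negative and MTHFD1L (0.01) turned positive. With 1 array left out these reached 0.26 for PHGDH, 0.06 for PSPH, 0.22 for SHMT1, 0.18 for MTHFD1 and -0.31 for MTHFD1L. With the mean of all probe sets, PSAT1 (-0.35) and PSPH (-0.17) turned negative in HCC827 at 24 h, PSAT1 turned to 0.06 in HCC827 at 48 h against 24 h, and PSPH turned to 0.88 for the EBC-1 response minus the MKN-45 response at 48 h and to -0.73 for EBC-1 DMSO against MKN-45 DMSO. Values not called as reported also reversed. With the mean of all probe sets these were SHMT1 in EBC-1 (0.07) and PSPH in MKN-45 (-0.12) for 48 h against 24 h, and PSPH for EBC-1 minus MKN-45 at 24 h (0.97). PHGDH for 48 h against 24 h in HCC827 turned to -0.04 with quantile normalization and -0.01 with centring, and SHMT2 for EBC-1 minus MKN-45 at 24 h to 0.00 with quantile normalization and 0.01 with a pseudocount of 64. With 1 array left out, 48 h against 24 h ranged from -0.38 to 0.07 for PHGDH in EBC-1, from -0.04 to 0.13 for PSPH in MKN-45, and in HCC827 from -0.10 to 0.21 for PHGDH and from -0.03 to 0.36 for MTHFD2. The difference of responses ranged from -0.09 to 0.00 for SHMT2 (EBC-1 minus MKN-45 at 24 h), from -0.04 to 0.08 for SHMT1 (EBC-1 minus MKN-45 at 48 h) and from -0.15 to 0.03 for PSPH (MKN-45 minus HCC827 at 48 h). The cause was not tested.

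The replicate numbers did not pair the samples. Same-numbered arrays correlated at -0.04 to 0.16 in EBC-1, -0.13 to 0.13 in MKN-45 and -0.20 to 0.16 in HCC827, over 0.1 in 1, 2 and 2 of 9 pairs, and 3 of 9 arrays in each line correlated best with their own number. With the replicate number as a block, 8 enzymes were called in each comparison of EBC-1 and MKN-45 with DMSO, and 0 and 4 in HCC827. The block count was 3 (EBC-1, PSPH lost) and 4 (HCC827, SHMT1 lost) for 48 h against 24 h and 6 for MKN-45 minus HCC827 at 48 h (SHMT1 lost), each 1 fewer than without it.

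Over all genes, 4 were called in HCC827 at 24 h. The count was 0 with the mean of probe sets, no trend, the block or a separate fit, 1 without the filter or with a pseudocount of 1, 11 with a pseudocount of 64, 27 with quantile normalization, and 2394, 2675 and 20 without replicate 1, 2 and 3 of the treated arrays. In HCC827 at 48 h it was 2755, against 1217 in a separate fit and 4649 without HCC827 SGX-523 24 h replicate 3. For 48 h against 24 h it was 1371 in EBC-1, against 2828 and 2972 in alternatives to the main fit. The count was 3286 in HCC827, against 1059 in a separate fit, and 3008 in MKN-45, against 4919 without HCC827 SGX-523 24 h replicate 3. The share of higher genes among those called for 48 h against 24 h in HCC827 was 59.5%, against 48.7% with quantile normalization. Signals near background limit PHGDH in treated EBC-1 and GLDC on all arrays.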
